A study of Mus musculus with 4 samples.

Results

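The cells described here are 181 of the 24802 cells of a single-cell RNA table from mouse liver tumours, chosen by their transcripts as mature dendritic cells. A cell was taken when at least 2 of 5 genes, Fscn1, Ccl22, Ccr7, Cacnb3 and Il4i1, had a value above 0. One of these had to be Fscn1 or Ccl22. Cst3 or H2-Ab1 also had to be above 0, and 7 genes of other lineages (Siglech, Cd3d, Cd3e, Cd3g, Cd79a, Ms4a1 and Clec4f) had to be at 0. The measured values of these genes therefore define the cells, and their levels are given as a description only. Below, the cells are called the gated cells.

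The tissue was hepatocellular carcinoma of C57BL/6 mice of 2 genotypes, Miz1ΔHep (2 samples) and Miz1F/F (2 samples, the controls). Miz1ΔHep names a deletion of Miz1, the product of Zbtb17, in hepatocytes; the labels name no Cre driver. All mice, controls included, received the carcinogen DEN (25 mg/kg) at week 2 of life and then the liver toxicant CCl4 weekly (0.5 ml/kg, in corn oil), and were killed at 5 months. Digested liver was loaded, with no sort by cell type named in the labels, and RNA was read from its 3′ ends with 10x droplets. All samples share 1 table, in which the cell barcodes end in 1 of 4 suffixes (barcode sets 1 to 4), and neither labels nor headers tie a suffix to a sample or genotype. No comparison between genotypes was therefore made, and no p-value is given, because cells of a pooled table are not replicates. Values are given per barcode set instead, as the spread that the data allow.

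Dendritic cells take up antigen in tissues and present it to T cells. When they mature, they exchange uptake for presentation: they acquire the chemokine receptor CCR7, which guides them towards lymph nodes, the actin-bundling protein fascin (Fscn1), costimulatory proteins, and chemokines such as CCL22 and CCL17 that attract T cells through CCR4. In tumours, cells with this profile also carry inhibitory ligands such as PD-L1 (Cd274) and CD200, and they can arise from either of the conventional lineages, cDC1 and cDC2. They were set here against cDC2 (223 cells, gated by Cd209a, Clec10a, Mgl2 and Flt3) and cDC1 (197 cells, gated by Xcr1, Clec9a, Cadm1 and Naaa) of the same barcode sets. Both comparison gates required all 5 genes of the rule to be at 0.

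The gated cells made up 0.730% of all cells (exact 95% interval 0.628 to 0.844%). There were 18 in set 1, 36 in set 2, 36 in set 3 and 91 in set 4, which is 0.699%, 0.578%, 0.746% and 0.814% of the cells of each set. The exact 95% intervals of these 4 shares overlapped. Depth differed strongly: the median UMI count of the gated cells (UMIs are counted RNA molecules) was 7506, 1923, 1790 and 5122 in sets 1 to 4, against 2648, 906, 1037 and 1859 for all cells of those sets. When every cell was thinned to 1000 UMIs, and the 375, 3392, 2347 and 1774 cells below that depth were left out, 6, 27, 23 and 30 cells met the rule, or 0.273%, 0.953%, 0.928% and 0.319%. Of these, 0, 3, 0 and 4 had not met it before thinning. The same cells had shares of 0.819%, 1.24%, 1.37% and 0.925% before thinning, so sets 2 and 3 were above sets 1 and 4 both before and after. After thinning, the exact 95% intervals of set 2 (0.629 to 1.38%) and set 3 (0.589 to 1.39%) lay above that of set 4 (0.215 to 0.455%). All these intervals cover counting error only.

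The label was set beside clusters of all cells and marker genes outside the rule, and it fitted only part of the gated cells. At a Leiden resolution of 1.0, 124 gated cells (68.5%) lay in 1 dendritic cell cluster of 1204 cells led by Cd209a, Ccl17, Tbc1d4 and Cst3, while 39 lay in endothelial clusters. At a resolution of 2.0 the cells separated further. A compact cluster of 77 cells, led by Tbc1d4, Fscn1, Il12b, Apol7c and Ccl22, held 59 gated cells, which were 76.6% of that cluster. It was picked as the cluster with the largest share of gated cells. The rule genes Fscn1, Ccl22, Cacnb3 and Il4i1 were among its leading genes. The share therefore describes this cluster and does not test the label. Of its 18 cells outside the gate, 14 had a gene that the rule required at 0. Another 65 gated cells lay in a cluster of 1089 cells led by Cd209a, Ccl17, Cst3, Tnip3 and Clec10a, and the remaining cells were spread over other clusters.

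Part of the gate carried endothelial genes. Of the 181 gated cells, 43 had at least 3 of 9 endothelial markers, among them Kdr, the main VEGF receptor, and Cdh5, the cadherin of endothelial junctions. Their number was 1, 4, 2 and 36 in sets 1 to 4, so that set 4 held most of them. Without them the gated cells were 0.660%, 0.514%, 0.705% and 0.492% of the cells of sets 1 to 4. These 43 cells averaged 1219 CPM of Kdr and 758 CPM of Cdh5, where CPM is a gene's share of a cell's UMIs scaled to 1000000 and averaged over cells; the other 138 gated cells averaged 6.51 and 2.39 CPM. The 43 cells had 2682 CPM of Cd74, the MHC class II invariant chain, and 2.97 CPM of Flt3, the growth factor receptor of conventional dendritic cells, against 21144 and 128 CPM in the other 138. Fscn1 itself is not silent in endothelium: it averaged 157 CPM in 2400 gated endothelial cells. The 43 cells had a median of 5308 UMIs, against 1915.5 in the endothelial gate. These medians are not matched by set: 36 of the 43 cells, but 1196 of the 2400 endothelial cells, were in set 4. Asking for 2 rule genes above 0 also favours deep cells. All 39 gated cells in the endothelial clusters at resolution 1.0 were among these 43. Fscn1 had a UMI in 42 of the 43, Ccl22 in 6, and Flt3 in 1. The name mature dendritic cell is therefore not borne out for these 43 cells. What they are was not tested, doublets and uptake of free RNA included. The comparisons below were made with all gated cells and again without these 43.

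**Figure D1:**
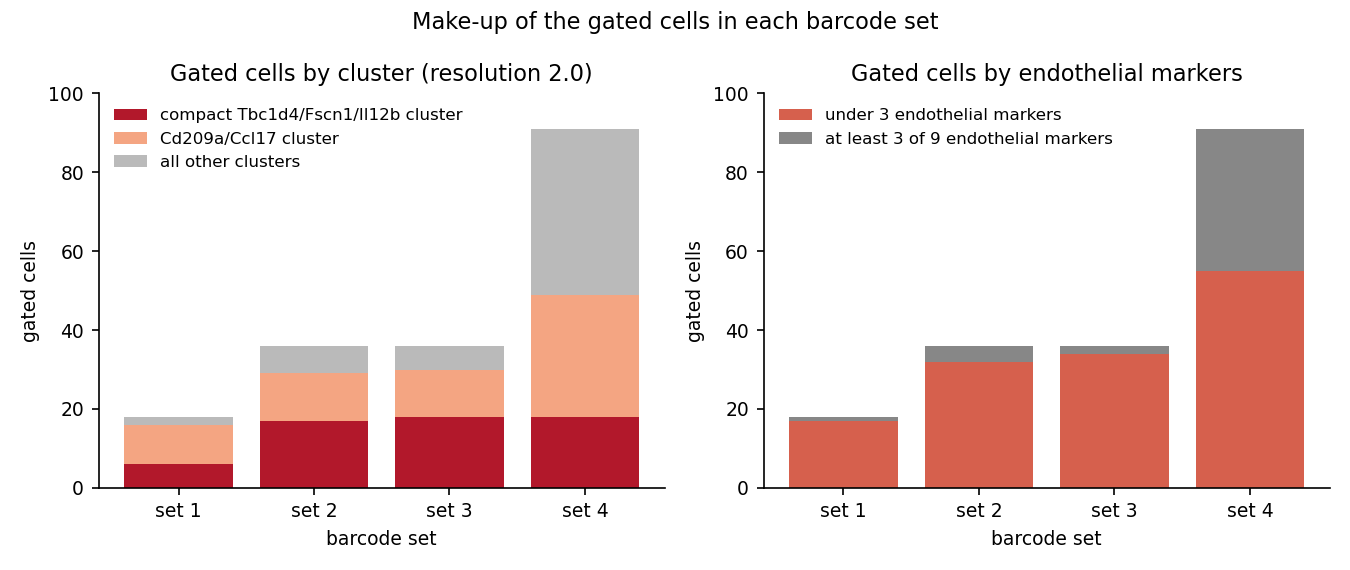
Number of gated cells (y axis) in each barcode set (x axis), split on the left by cluster at resolution 2.0 and on the right by endothelial markers. The compact cluster gives 6, 17, 18 and 18 cells in sets 1 to 4, while 36 of the 43 cells with endothelial markers are in set 4.

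By number of rule genes the cells were unevenly filled. Of the gated cells, 93 had exactly 2 of the 5 genes, 42 had 3, 35 had 4 and 11 had all 5. Ccr7 was present in 152 of them, Fscn1 in 126, Ccl22 in 94, Il4i1 in 69 and Cacnb3 in 66, and 39 had both Fscn1 and Ccl22. Just outside the rule were 714 cells with Fscn1 or Ccl22 as their single gene of the 5. Of these, 617 had at least 3 endothelial markers, against 38 of the 93 cells just inside. The median depth was 4565 UMIs just outside and 4555 UMIs just inside. Cd74 averaged 16156 CPM just inside and 2654 CPM just outside, and Kdr 543 CPM just inside and 1407 CPM just outside. The 7 genes required at 0 removed 124 further cells, mostly through Cd79a (85 cells), a B cell gene. Only 2 gated cells had a barcode sequence that also occurs in another set; 373 such sequences exist in the table.

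Transcripts of other cell types were present as well. Hepatocyte markers summed to between 470 and 7247 CPM per set in the gated cells, against 69541 to 142704 CPM in gated hepatocytes, with Cyp2e1 at 0 in the gated cells, and 126 gated cells had at least 3 of the 10 markers. Erythroid markers reached 23001 CPM in set 3 against 403 to 950 CPM in the other sets, and neutrophil markers 1988 CPM in set 2 against 37.8 to 122 CPM elsewhere. T cell markers summed to at most 122 CPM, with Foxp3 and Cd5 at 0. Plasma cell markers reached 2394.5 CPM and mesenchymal markers 982 CPM in set 3, and 1 gated cell of the whole table had at least 3 mesenchymal markers. B cell, NK cell, pDC, cholangiocyte and basophil markers each stayed at or below 376 CPM in every set, with Pax5, Prf1, Eomes, Krt19, Krt7 and Cpa3 among those at 0. The rule required Cd3d, Cd3e, Cd3g, Cd79a, Ms4a1 and Siglech at 0. Low sums of T cell, B cell and pDC markers were therefore partly fixed by the rule. The part of transcripts of other cell types in the results below was not tested.

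The 3 portions of the gate had different profiles, which the plot of mean levels by portion shows side by side. The clusters were built from these same genes, so the differences describe the portions and test nothing. Fscn1 averaged 2249.6 CPM in the compact cluster, 472 CPM in the Cd209a cluster and 354 CPM in the cells with endothelial markers. Ccr7 followed the same order, with 4025, 1097 and 227 CPM. Ccl22 did not: it averaged 769 CPM in the compact cluster and 1355 CPM in the Cd209a cluster. Ccl17, whose product shares the receptor CCR4 with CCL22, averaged 138 CPM in the compact cluster and 2112 CPM in the Cd209a cluster over all sets. By set, Ccl17 was at 26.4, 80.7, 119 and 248 CPM in the compact cluster, against 203, 293, 46.6 and 4231 CPM in the Cd209a cluster, so that set 4 carried the pooled difference and set 3 ran the other way. Ccl22 was also lower in the compact cluster in sets 2 to 4 but not in set 1, with 941 CPM there and 896 CPM in the Cd209a cluster. The rule required Fscn1 or Ccl22, which partly fixes how these 2 genes relate among the gated cells.

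Some genes usually named for mature dendritic cells averaged more in the compact cluster than in the Cd209a cluster. Ccl17 and Ccl22, pooled over the sets, averaged less in the compact cluster. Il12b, which encodes the p40 subunit of interleukins 12 and 23, averaged 757 CPM there and 96.0 CPM in the Cd209a cluster. Relb, an NF-kB subunit of the noncanonical pathway, averaged 664 and 178 CPM, and Cd200, the ligand of an inhibitory receptor on myeloid cells, 645 and 46.0 CPM. Ccl5, a chemokine, averaged 5161 CPM in the compact cluster and 1360.1 CPM in the Cd209a cluster. MHC class II ran the other way: H2-Ab1 averaged 3349.8 CPM in the compact cluster and 12862 CPM in the Cd209a cluster, and the peptide-loading factor H2-DMb1 53.5 and 569 CPM. Cd209a, a lectin of cDC2, had no UMI in the compact cluster, and neither had Naaa of cDC1, while Xcr1, the chemokine receptor of cDC1, had 8 UMIs in 4 of its cells. For Cd209a and Naaa, the Cd209a cluster had 276 and 67.1 CPM. Irf8, the factor that cDC1 depend on, averaged 568 CPM in the compact cluster, between 717 CPM in the cDC1 gate and 115 CPM in the cDC2 gate. Batf3, its partner in cDC1, averaged 294 CPM there, against 184 CPM in the cDC1 gate and 83.5 CPM in the cDC2 gate.

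**Figure D2:**
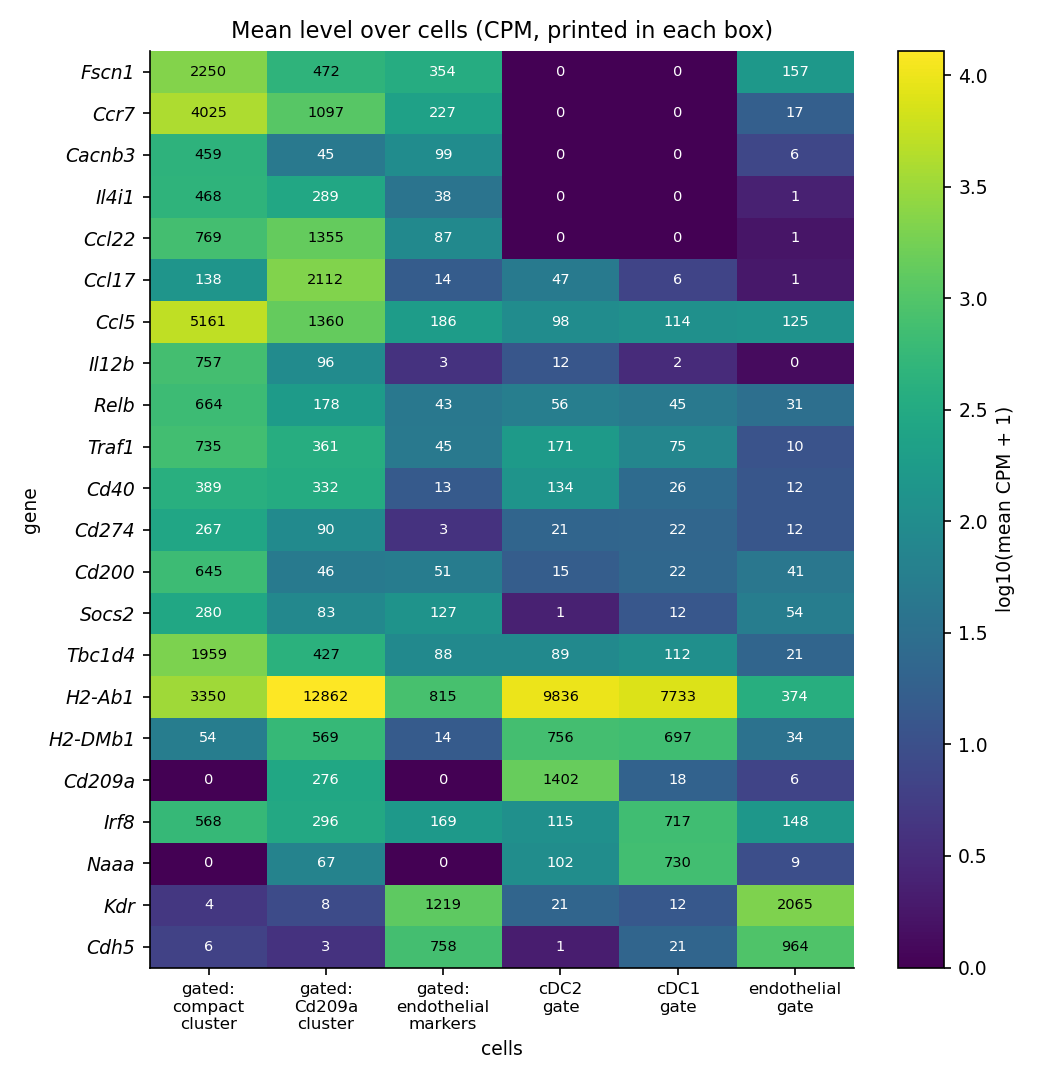
Mean level over cells (CPM, number and colour on a log10 scale) of 22 genes (rows) in 3 portions of the gated cells and 3 comparison gates (columns). The first 5 rows are the genes of the rule, which both dendritic comparison gates required at 0; Ccl17 and Ccl22, pooled over the sets, are highest in the Cd209a portion, while Fscn1, Ccr7, Ccl5, Il12b, Relb and Cd200 are highest in the compact cluster.

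For the comparisons with cDC2 and cDC1, the log2 ratio of mean CPM plus 20 was taken within each barcode set that had at least 20 cells of both classes, which were sets 2, 3 and 4. A gene was tested when it had a median of at least 50 CPM in either class and was used by no gate, and it was counted as higher or lower when it differed at least 2-fold the same way in all 3 sets. Ratios are given as the median with the lowest and highest set in parentheses. Against cDC2, 126 of 2896 genes tested were higher (4.35%) and 75 were lower (2.59%). Against cDC1, 143 of 2947 were higher (4.85%) and 76 were lower (2.58%). Without the 43 cells with endothelial markers, 134 of 2753 genes were higher (4.87%) and 65 lower (2.36%) than in cDC2, and 138 of 2841 were higher (4.86%) and 85 lower (2.99%) than in cDC1. With at least 3 of the 5 rule genes, 183 of 2836 were higher (6.45%) and 147 lower (5.18%) than in cDC2, and 203 of 2903 were higher (6.99%) and 159 lower (5.48%) than in cDC1. Of the higher genes, 85 were shared between the analyses with and without these cells for cDC2 (67.5% of the 126 and 63.4% of the 134) and 107 for cDC1 (74.8% of the 143 and 77.5% of the 138). The median ratio of all genes tested was 0.02 against cDC2 and -0.03 against cDC1. The 20 CPM added to both sides keep the ratio of a gene at 0 finite and understate the change of low genes. Both comparisons share the gated cells, so their ratios are not independent of each other.

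Chemokines and cytokines are the secreted signals of these cells. Over all genes tested, 4.35% were higher and 2.59% lower than in cDC2, and 4.85% higher and 2.58% lower than in cDC1. Of 22 chemokines and cytokines listed, 15 were tested against cDC2; 3 were higher, Ccl5, Il12b and Ccl17, and 1 was lower, Ccl6, with a median of -0.07 over the 15. Against cDC1, 14 were tested; 4 were higher, the same 3 and Cxcl16, and 2 were lower, Ccl4 and Cxcl2, with a median of 0.21.

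Ccl5 had 1453, 4599.6 and 1966 CPM in the gated cells of sets 2, 3 and 4, against 97.5, 125 and 78.2 CPM in cDC2 and 83.5, 166 and 79.8 CPM in cDC1. Every gated value was above every comparison value, and set 1, with 18 gated cells, gave 826 CPM against 8.58 CPM in 15 cDC2. The ratio was 4.34 (3.65 to 4.99) over cDC2 and 4.31 (3.83 to 4.64) over cDC1, and without the cells with endothelial markers it was 5.00 (3.82 to 5.07) and, at the median, 4.71. Over all sets the gated cells held 1164 Ccl5 UMIs, 1330.5 per 1000000 UMIs of these cells (exact Poisson 95% interval 1255 to 1409). They came from 93 cells, and the 5 highest cells gave 32.2% of them.

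Il12b had 651, 288 and 124 CPM in the gated cells, against 37.8, 0 and 3.27 CPM in cDC2 and 0, 4.02 and 1.94 CPM in cDC1. The groups did not overlap, although set 4 was the lowest of the gated values. The ratio was 3.54 (2.63 to 3.95) over cDC2 and 3.68 (2.71 to 5.07) over cDC1. The transcript was carried by few cells: 33 of the 181 had a UMI, and 5 of them gave 55.5% of the 227 UMIs. In the endothelial gate, where the gene is not expected, 2 of 2400 cells had one, at a median depth of 1915.5 UMIs against 3842 in the gated cells.

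Ccl17 had 136, 75.0 and 1496 CPM in the gated cells, against 29.0, 12.2 and 140.5 CPM in cDC2 and 17.0, 0 and 7.09 CPM in cDC1. Within each set the gated cells were higher, but the gated values of sets 2 and 3 lay below the cDC2 value of set 4, and the gated value of set 4 was the highest by far. The ratio was 1.67 (1.56 to 3.24) over cDC2 and 2.25 (2.07 to 5.81) over cDC1. It rests on few cells, 4, 2 and 24 with a UMI in sets 2, 3 and 4, and 5 cells gave 72.3% of all 839 UMIs. In the endothelial gate 10 of 2400 cells had a UMI.

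Other signals differed by lineage or did not differ by 2-fold in all sets. Cxcl16, a chemokine made as a membrane protein and read by CXCR6, had 627, 1088 and 608 CPM in the gated cells, against 290.1, 229.7 and 211 CPM in cDC1 and 280.3, 168 and 325 CPM in cDC2. Its ratio was 1.44 (1.06 to 2.15) over cDC1 and 1.11 (0.87 to 2.56) over cDC2, where set 4 missed the threshold; without the cells with endothelial markers it passed in both. Il1b, the inflammatory cytokine, had 1306, 564 and 1124 CPM in the gated cells, against 2299.7, 1303 and 2653 CPM in cDC2, a ratio of -1.18 (-1.22 to -0.81). Ccl6 was lower than in cDC2, with a ratio of -2.34 (-3.12 to -1.10), a call that ended without the cells with endothelial markers at -2.24 (-3.10 to -0.95). Ccl4, a chemokine, and Cxcl2, which attracts neutrophils, were lower than in cDC1, at -1.23 (-2.19 to -1.02) and -1.57 (-2.40 to -1.28). Both calls also ended without those cells. Among the gated cells with at least 3 of the 5 rule genes, however, both were again called lower than in cDC1, and Ccl6 was not called against cDC2. Ccl19, the ligand of CCR7, had 5 UMIs in all gated cells, in set 3 alone.

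Costimulation genes carry the second signal to T cells. The share of all genes called higher was 4.35% against cDC2 and 4.85% against cDC1. Of 13 listed, 7 were tested against cDC2 and none was higher or lower (median 0.14); 8 were tested against cDC1 and 1, Cd40, was higher (median 0.18). Cd40, the receptor through which helper T cells license dendritic cells, had 567, 295 and 127 CPM in the gated cells, against 30.3, 27.0 and 27.3 CPM in cDC1 and 208, 110.2 and 103 CPM in cDC2. The ratio was 2.74 (1.64 to 3.55) over cDC1 and 1.27 (0.26 to 1.36) over cDC2, where set 4 fell short of 2-fold. Cd86, a ligand of CD28 and CTLA-4, had 189, 97.8 and 108 CPM in the gated cells, against 212, 71.7 and 96.1 CPM in cDC2 and 114, 87.4 and 132 CPM in cDC1, and the groups overlapped. Cd83, a surface marker of mature dendritic cells, overlapped too, with ratios of 0.40 (-0.22 to 1.02) and 0.23 (-0.16 to 0.64). Cd80, the other CD28 ligand, stayed below the level filter with 25 UMIs in the gated cells, against 12 in cDC2 and 11 in cDC1.

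Inhibitory and regulatory genes restrain T cells or signalling. Among all genes tested, 4.35% were higher than in cDC2 and 4.85% higher than in cDC1. Of 16 listed, 7 were tested against cDC2 and 3 were higher, Cd200, Socs2 and Cd274, with a median of 1.29. Against cDC1, 9 were tested and 4 were higher, the same 3 and Fas, with a median of 0.36. Cd274, which encodes PD-L1, had 192, 159.7 and 89.3 CPM in the gated cells, against 42.5, 11.6 and 17.0 CPM in cDC2 and 3.70, 30.2 and 26.6 CPM in cDC1. All gated values were above all comparison values. The ratio was 1.76 (1.56 to 2.51) over cDC2 and 1.84 (1.23 to 3.16) over cDC1.

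Cd200 had 395, 448 and 137 CPM in the gated cells, against 17.6, 21.6 and 2.86 CPM in cDC2 and 15.1, 39.6 and 11.4 CPM in cDC1, with no overlap. Its ratio was 3.47 (2.78 to 3.49) over cDC2 and 2.97 (2.32 to 3.56) over cDC1. Socs2, an inhibitor of cytokine receptor signalling, had 265, 121 and 135 CPM in the gated cells, against 0, 0 and 3.39 CPM in cDC2 and 9.04, 7.87 and 21.4 CPM in cDC1. Its ratio was 2.81 (2.73 to 3.84) over cDC2 and 2.33 (1.91 to 3.30) over cDC1. The cells with endothelial markers had Socs2 too, at 127 CPM, and the endothelial gate 53.6 CPM, and without those cells the ratio over cDC2 was 2.88 (2.83 to 3.82). Fas, the death receptor, was higher than in cDC1 at 2.30 (1.52 to 2.74). Pdcd1lg2, which encodes PD-L2, and Aldh1a2, which makes retinoic acid, stayed below the filter, with 20 and 17 UMIs in the gated cells, against 2 and 1 in cDC2.

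**Figure D3:**
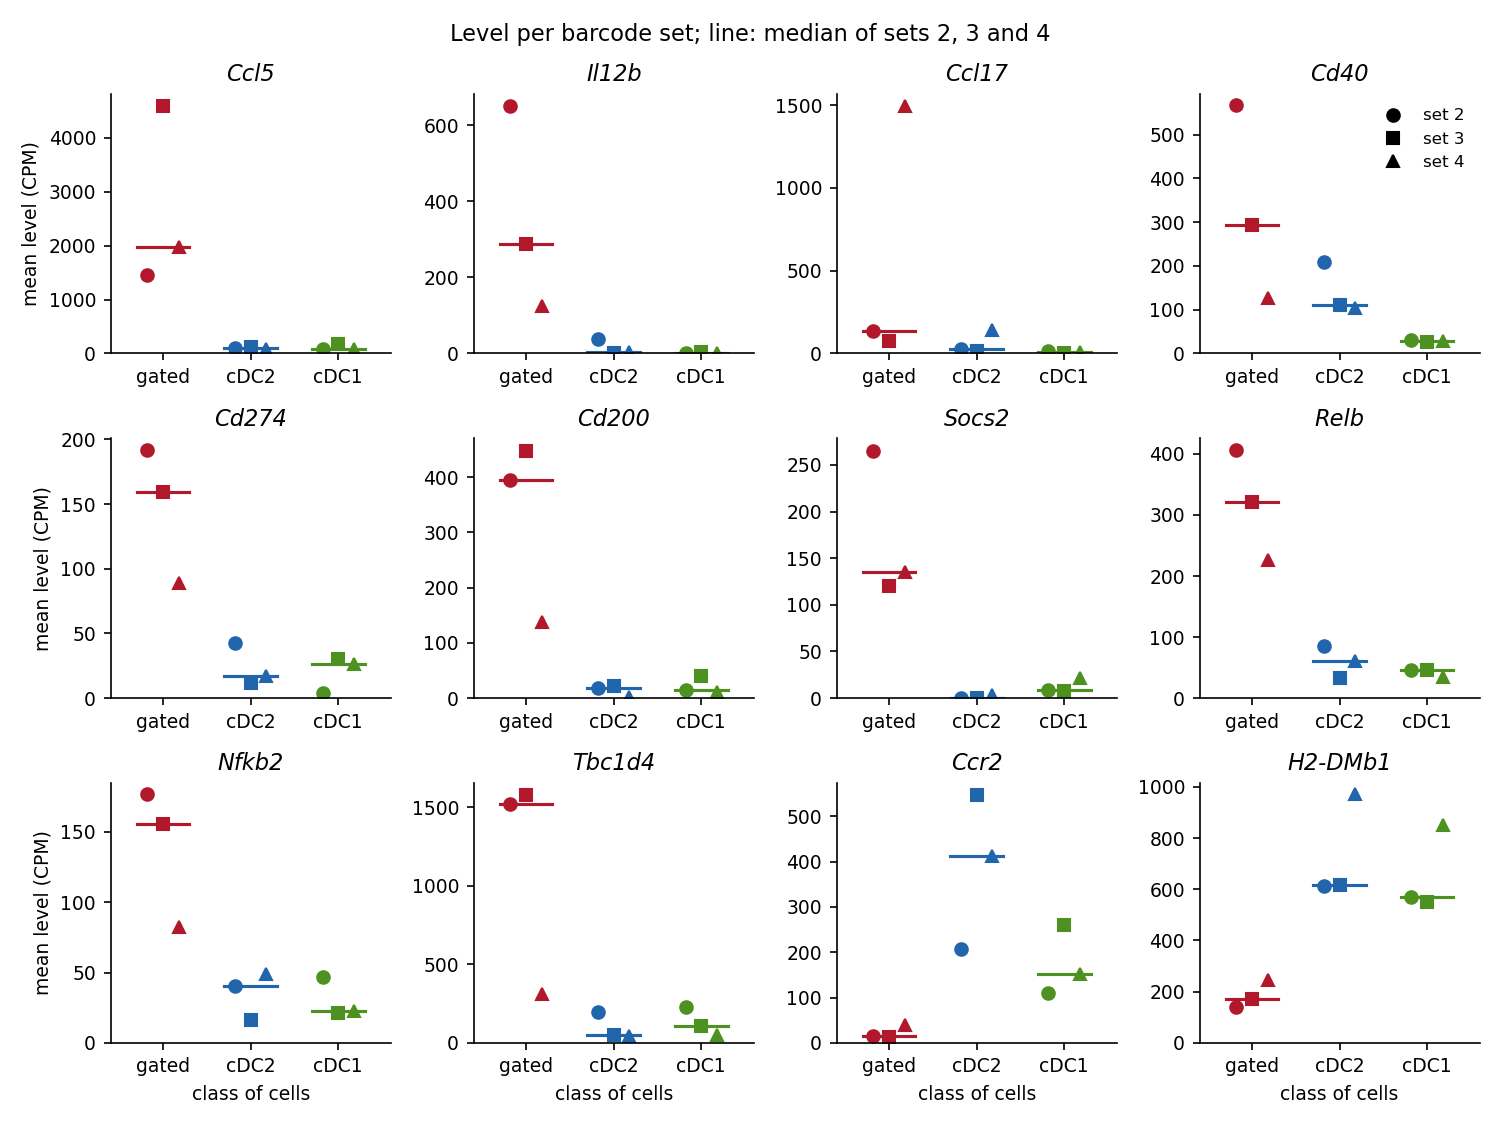
Mean level (CPM, y axis from 0) of 12 genes in gated cells, cDC2 and cDC1 (x axis), with 1 symbol for each of barcode sets 2, 3 and 4 and a line at their median. Ccl5, Il12b, Cd274, Cd200, Socs2, Relb, Nfkb2 and Tbc1d4 are higher in the gated cells of every set than in any comparison value, Ccr2 and H2-DMb1 are lower, and Ccl17 and Cd40 overlap.

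NF-kB factors turn on genes of maturation, and the noncanonical branch works through RelB and p52. With all gated cells, more genes of this pathway were called against cDC1 than against cDC2, a contrast that was not tested. Of 17 listed subunits, regulators and targets, all were tested in both comparisons. Against cDC2 only Relb was higher, with a median of 0.28 over the list; against cDC1, 4 were higher, Relb, Traf1, Nfkb2 and Rel, with a median of 0.89. None was lower in either. Over all genes tested, 4.35% were higher than in cDC2 and 4.85% higher than in cDC1. With at least 3 of the 5 rule genes, 4 of the 17 were higher than in cDC2 and 6 higher than in cDC1. The shares of all genes were then 6.45% and 6.99%. Relb had 407, 321 and 226 CPM in the gated cells, against 84.6, 32.6 and 61.0 CPM in cDC2 and 46.0, 45.9 and 34.8 CPM in cDC1. The gated values lay above all others, and the ratio was 2.03 (1.60 to 2.70) over cDC2 and 2.37 (2.17 to 2.69) over cDC1.

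Nfkb2, whose p52 product pairs with RelB, had 177, 155 and 82.2 CPM in the gated cells, against 46.9, 20.9 and 22.8 CPM in cDC1 and 40.5, 15.9 and 48.9 CPM in cDC2. The ratio was 1.56 (1.26 to 2.10) over cDC1 and 1.70 (0.57 to 2.29) over cDC2, where set 4 missed 2-fold; without the cells with endothelial markers all 3 sets passed, with a median of 1.67. Traf1, an adaptor of TNF receptors, had 380.3, 389 and 319 CPM in the gated cells, against 85.6, 83.6 and 58.0 CPM in cDC1 and 237, 65.6 and 226 CPM in cDC2. Its ratio was 1.98 (1.92 to 2.12) over cDC1 and 0.64 (0.46 to 2.26) over cDC2. Rel, the subunit c-Rel, was higher than in cDC1 at 1.22 (1.02 to 1.34) and near the cDC2 level at 0.21 (0.00 to 0.71). Nfkbia, the inhibitor IkB-alpha, had ratios of 0.28 (-0.56 to 0.50) and 0.75 (0.55 to 1.75) and was called in neither comparison.

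The promoter windows of Ccl22, a gene of the rule, and of Nfkb2, a member called against cDC1, are printed to show what an NF-kB motif search finds beside these levels. The windows run from 250 bases before to 50 after the annotated start, from RefSeq on GRCm38.p6, a patch release of the mm10 build named in the submitters' processing notes. Capitals mark matches to GGGNNNNNCC on either strand, and overlapping matches are joined; the sequences read 5′ to 3′ on the plus strand.
Ccl22 (chr8:94745434-94745733): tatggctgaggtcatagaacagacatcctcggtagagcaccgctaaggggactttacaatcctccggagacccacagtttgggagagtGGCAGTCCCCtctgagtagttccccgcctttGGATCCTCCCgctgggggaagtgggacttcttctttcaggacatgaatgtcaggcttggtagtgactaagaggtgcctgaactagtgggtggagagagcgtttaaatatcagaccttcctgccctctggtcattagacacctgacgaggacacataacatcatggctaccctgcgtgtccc
Nfkb2 (chr19:46305445-46305744): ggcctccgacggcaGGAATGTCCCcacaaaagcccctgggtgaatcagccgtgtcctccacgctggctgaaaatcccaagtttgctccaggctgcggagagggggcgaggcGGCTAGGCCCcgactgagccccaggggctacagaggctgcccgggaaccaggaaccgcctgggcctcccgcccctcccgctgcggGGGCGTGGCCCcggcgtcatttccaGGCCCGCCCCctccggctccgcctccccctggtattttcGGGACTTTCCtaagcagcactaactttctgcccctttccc
The Ccl22 window held 2 matches, and this Nfkb2 window, 1 of 3 annotated starts, held 6. Such matches occurred in 50.8% of all 32851 windows, so the motif separates little. The windows of Ccl17, Il12b and Traf1 held no match to GGGNNNNNCC. The Ccl17 window lies on the same chromosome as that of Ccl22, at chr8:94810203-94810502. A match is a string of letters and not a measured binding site.

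Most transcription factors of dendritic cells were not called. For scale, 4.35% of all genes tested were higher than in cDC2, and 4.85% were higher than in cDC1. Of 24 listed, 21 were tested against cDC2, where Id2, Nr4a3 and Relb were higher and Batf was lower (median 0.24). Against cDC1, 21 were tested, and Nr4a3, Relb, Etv3 and Bhlhe40 were higher and none lower (median 0.79). Nr4a3, a nuclear receptor linked in mice to CCR7-dependent migration of dendritic cells, had 1922, 1325 and 341 CPM in the gated cells, against 795, 275 and 114 CPM in cDC2 and 937, 233 and 66.7 CPM in cDC1. The level varied widely between sets in all 3 classes, but within each set the gated cells were higher, at 1.43 (1.25 to 2.19) and 2.06 (1.02 to 2.41). Id2, which cDC1 need, was higher than in cDC2 at 2.38 (1.97 to 2.91) and had a ratio of 0.79 (0.23 to 1.66) over cDC1. Irf8 was not called in either comparison, with ratios between 0.80 and 2.41 over cDC2 and between -1.70 and -0.25 over cDC1. Zbtb46, a factor of the conventional dendritic lineage that endothelial cells also express, had ratios of 1.16 (0.67 to 1.56) and 1.74 (0.77 to 2.13). Irf4, needed for migration of cDC2, was below the filter with 12 UMIs in the gated cells, against 29 in cDC2 and 4 in cDC1.

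Some lineage genes outside the gates were lower in the gated cells. As a scale, 2.58% of all genes tested were lower than in cDC1 and 2.59% lower than in cDC2. Of the 15 cDC1 identity genes, 9 were tested against cDC1 and 5 were lower, Rab7b, Ppt1, Wdfy4, Ifi205 and Itgae, with a median of -1.85. Rab7b, a small GTPase of the endosomal system, had 36.6, 44.1 and 11.8 CPM in the gated cells, against 487, 368 and 323 CPM in cDC1. Wdfy4, which cDC1 need for cross-presentation in mice, had 129, 32.0 and 51.6 CPM in the gated cells, against 569.7, 535 and 275 CPM in cDC1. Itgae, the integrin chain CD103, had 5 UMIs in the gated cells, against 58 in cDC1. Of the 15 cDC2 identity genes, 8 were tested against cDC2 and 2 were lower, Cd300a at -2.58 (-2.71 to -1.52) and Cd7 at -1.63 (-2.46 to -1.53), with a median of -1.09. None was higher than in its own lineage.

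Movement and shape genes gave a mixed list. All genes tested gave 4.35% higher and 2.59% lower than in cDC2, and 4.85% higher and 2.58% lower than in cDC1. Of 23 listed, 19 were tested against cDC2, where Cd63, Adam8, Basp1 and Marcks were higher and Ccr2 and Itgb7 lower (median 0.12). Against cDC1, 17 were tested, and Marcksl1, Cd63 and Basp1 were higher and Ccr2 lower (median 0.02). Ccr2, the receptor that draws monocytes and dendritic precursors from blood into tissue, had 14.2, 13.7 and 38.4 CPM in the gated cells, against 208, 547 and 413 CPM in cDC2 and 110.1, 259.8 and 151 CPM in cDC1. No gated value reached a comparison value, and the ratio was -2.89 (-4.07 to -2.74) over cDC2 and -1.93 (-3.05 to -1.55) over cDC1.

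Marcksl1, a membrane protein that binds actin and calmodulin, had 1733, 1946 and 1185 CPM in the gated cells, against 330.1, 207 and 273 CPM in cDC1, and its ratio was 2.32 (2.04 to 3.11). Over cDC2 it was 0.86 (0.47 to 1.67) and not called. Cd63, a tetraspanin of late endosomes, was higher in both, at 3.22 (3.18 to 3.87) and 1.85 (1.70 to 2.79). The abundant cytoskeletal genes differed less: Actb was 0.99 (0.55 to 1.06) over cDC2 and 0.70 (0.33 to 0.88) over cDC1, and Tmsb4x 0.73 (0.07 to 0.98) and 0.34 (-0.23 to 0.42).

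Dendritic cells present peptides on MHC class II to helper T cells and on class I to cytotoxic T cells. The shares of all genes tested were 4.35% higher and 2.59% lower than in cDC2, and 4.85% and 2.58% for cDC1. Of 14 MHC class II genes listed, 11 were tested in each comparison and only H2-DMb1 was lower, with medians of -0.82 against cDC2 and -0.25 against cDC1. H2-DMb1, which helps load peptides onto class II, had 140.3, 172 and 246 CPM in the gated cells, against 613, 617 and 974 CPM in cDC2 and 569, 549 and 852 CPM in cDC1. The ratio was -1.90 (-1.98 to -1.73) and -1.71 (-1.88 to -1.57), and -1.69 (-1.83 to -1.25) and -1.52 (-1.73 to -1.06) without the cells with endothelial markers. The class II chain H2-Aa had 7092, 7643 and 5754 CPM in the gated cells, against 10723, 9392 and 10498 CPM in cDC2 and 7587, 7726 and 6822 CPM in cDC1, a difference of less than 2-fold. Of 13 MHC class I genes, 12 were tested, and the proteasome activator Psme2 was higher than in cDC2 at 1.66 (1.18 to 1.91); none was called against cDC1. The medians of this list were 0.90 and 0.47. Without the cells with endothelial markers, H2-K1 and Psme2 were higher than in cDC2, and B2m and Psme2 higher than in cDC1. H2-K1, the heavy chain, had 3706, 3115 and 1419.6 CPM in the gated cells, against 1913, 1375 and 806 CPM in cDC2, a ratio of 0.95 (0.80 to 1.17), and it shares sequence with other class I genes.

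Of 25 uptake and pattern recognition genes, 11 were tested against cDC2; Clec4a3, Fcer1g and Tyrobp were lower and Ly75 and Cd36 higher, with a median of -1.45. Fcer1g, the signalling chain of Fc receptors, had 356, 454 and 656 CPM in the gated cells, against 1354, 1220.2 and 1822 CPM in cDC2, a ratio of -1.45 (-1.87 to -1.39). Tyrobp, the related adaptor DAP12, was at -1.48 (-1.59 to -1.30), a call that ended without the cells with endothelial markers. It was called lower again with at least 3 of the 5 rule genes. Ly75, the endocytic receptor DEC-205, had 239.9, 158 and 24.0 CPM in the gated cells, against 0, 3.65 and 0 CPM in cDC2. Cd36, a scavenger receptor of endothelium and macrophages, was higher with all gated cells, at 2.72 (1.86 to 3.06), and not without the cells with endothelial markers, at 0.54 (0.49 to 0.86). Against cDC1, 15 were tested and Fcgr4 alone was lower (median -0.75). Over all genes tested, 4.35% were higher and 2.59% lower than in cDC2, and 2.58% lower than in cDC1. Without the cells with endothelial markers, Mrc1, Tlr3, Fcgr4 and Cd36 were lower than in cDC1 (median -1.14).

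Lysosomal genes were lower where they were called. For the lists of this paragraph, all genes tested gave 4.35% higher and 2.59% lower than in cDC2. Against cDC1 these shares were 4.85% and 2.58%. Against cDC2, Ctsc and Cd68 of 15 tested were lower (median -0.65), both calls ending without the cells with endothelial markers. With at least 3 of the 5 rule genes, Ctsc was again called lower than in cDC2, and Cd68 was not. Against cDC1, Psap and Grn of 15 were lower (median -0.58). Psap, the precursor of the saposins, had 1949.6, 2139 and 1178 CPM in the gated cells, against 6342, 5948 and 3610.3 CPM in cDC1, at -1.60 (-1.69 to -1.47). Of 12 apoptosis and survival genes listed, 10 were tested in each comparison and none was lower, with medians of 0.86 and 0.45. The Bcl2a1 family, inhibitors of apoptosis, gave Bcl2a1b at 1.46 (1.15 to 2.82) over cDC2 and Bcl2a1a, Bcl2a1b and Bcl2a1d at 1.41, 2.04 and 1.73 over cDC1. These are near-identical copies, so the split of reads among them is uncertain. Bcl2l1 was higher than in cDC2 at 1.17 (1.01 to 1.29), and not called without the cells with endothelial markers. Bcl2l11, another gene of this list, was called higher than in cDC1 without those cells. No interferon-induced gene was called, of 10 and 11 tested (medians -0.18 and 0.69), and no cell cycle gene, of 5 in each (medians 0.72 and 0.16). Of the immediate early genes, Ier2 was lower than in cDC2 at a median of -1.03, of 16 tested, a call that ended without the cells with endothelial markers, and none was called of 17 against cDC1.

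**Figure D4:**
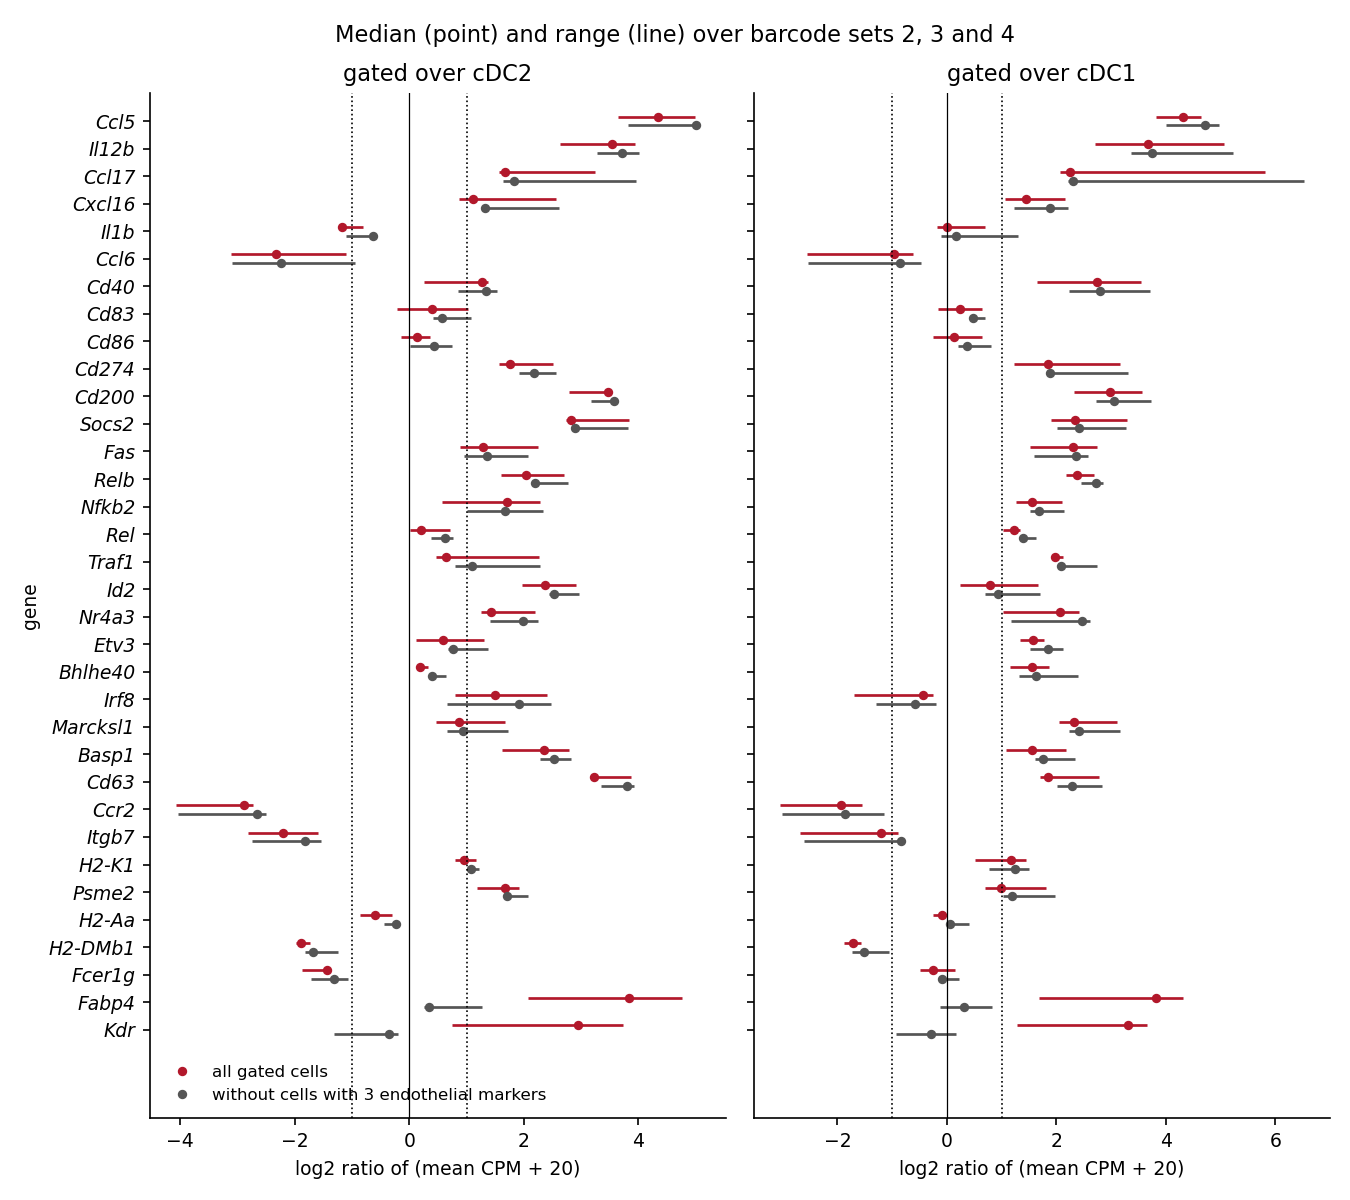
Log2 ratio of mean CPM plus 20 of 34 genes (rows), gated cells over cDC2 on the left and over cDC1 on the right; points are medians and lines the range over barcode sets 2, 3 and 4. Red stands for all gated cells and grey for those without 3 endothelial markers; dotted lines mark 2-fold, and of the genes drawn Fabp4 and Kdr move most between red and grey.

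Genes outside the lists were named by the size of their ratio. Over cDC2, the 10 highest were Ccl5, Serpinb6b, Fabp4, Fabp5, Il12b, Serpinb9, Anxa3, Tspan3, Cd200 and Dnase1l3. Serpinb6b, a serpin inside the cell, had 463, 629.5 and 328 CPM in the gated cells, against 8.36, 0 and 0 CPM in cDC2, a ratio of 4.12 (4.09 to 5.02). Serpinb9, which inhibits granzyme B, had 685, 525 and 380.3 CPM in the gated cells, against 61.6, 7.59 and 15.8 CPM in cDC2, at 3.48 (3.11 to 4.30). Tspan3, a tetraspanin, was at 3.47 (2.37 to 3.76) and Fabp5, a fatty acid binding protein, at 3.57 (3.51 to 4.59). Without the cells with endothelial markers these 4 were at 4.69, 4.14, 3.54 and 3.82. Fabp4, the endothelial and adipocyte relative of Fabp5, did not: it was at 3.84 (2.07 to 4.76) with all gated cells and at 0.34 (0.26 to 1.27) without them. Dnase1l3, a secreted nuclease, was at 3.37 (2.13 to 3.78) and 1.59 (1.59 to 3.61).

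The 10 lowest against cDC2 were Ccr2, Ly6c2, Cd300a, Cd209d, Cfp, Ccl6, Ms4a6c, Ifitm6, Itgb7 and Eps8, of which Ccr2, Ly6c2 and Ms4a6c were also on the list of monocyte markers. Ly6c2, the monocyte antigen, had 0, 0 and 15.6 CPM in the gated cells, against 342, 96.6 and 233 CPM in cDC2, at -2.83 (-4.18 to -2.54). The 9 monocyte markers summed to 367, 565 and 577 CPM in the gated cells of sets 2 to 4, against 1651, 2401 and 3197 CPM in cDC2, so the comparison gate carried more of them. Their part in these ratios was not tested.

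Over cDC1, the 10 highest were Ccl5, Fabp4, Ehd3, Il12b, Tmem123, S100a4, Fabp5, Tspan3, Sparc and Kdr. S100a4, a calcium-binding protein, had 1538, 948 and 750.0 CPM in the gated cells, against 48.3, 63.6 and 66.6 CPM in cDC1, at 3.53 (3.15 to 4.51); cDC2 had 976, 1492 and 887 CPM, which overlapped the gated values. Tmem123, a membrane protein, had 1604, 1857 and 602 CPM in the gated cells, against 109, 57.1 and 117 CPM in cDC1, at 3.65 (2.19 to 4.61). Fabp4, Ehd3, Sparc and Kdr are expressed in endothelium, and without the cells with endothelial markers they were at 0.31, -0.20, 0.75 and -0.29, so none of the 4 was called.

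The 10 lowest against cDC1 were Spp1, Hmox1, C1qa, Rab7b, C1qc, Lpl, Khk, Clu, Ppt1 and Gpr171. Spp1, the secreted protein osteopontin, had 18.3, 203 and 35.0 CPM in the gated cells, against 1220.2, 1182 and 594 CPM in cDC1, at -3.48 (-5.02 to -2.43). C1qa, a complement chain of macrophages, had 0, 3.54 and 260.2 CPM in the gated cells, against 549.8, 193 and 1105 CPM in cDC1. The 12 macrophage markers, which include Spp1, C1qa and C1qc, summed to 109, 303 and 1074 CPM in the gated cells of sets 2 to 4, against 3824, 1917 and 5483 CPM in the cDC1 gate. The 7 cholangiocyte and ductal markers, which also include Spp1, summed to 67.9, 222 and 147 CPM in the gated cells of these sets. In the cDC1 gate they summed to 1637, 1725 and 1057 CPM. The part of macrophage or ductal transcripts in these 10 ratios was not tested.

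Tbc1d4, a regulator of vesicle traffic that led the compact cluster, passed in both comparisons, with 1522, 1579 and 308 CPM in the gated cells, against 198, 52.7 and 44.1 CPM in cDC2 and 226, 107 and 52.2 CPM in cDC1. It was present in 106 of the 181 gated cells, and the 5 highest cells gave 17.0% of its UMIs, a smaller share than for Ccl17, Il12b or Ccl5. In the endothelial gate 126 of 2400 cells had a UMI. It was named after its values were seen.

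The levels were also ordered over 12 classes gated by marker genes, from B cells to hepatocytes. Of the 153 genes examined, 28 had their highest level in the gated cells in each of sets 2, 3 and 4. These include the 5 genes of the rule and Ccl17, Il12b, Relb, Nfkb2, Traf1, Cd40, Cd274, Socs2, Nr4a3, Etv3, Ly75, Tbc1d4, Tmem123 and Tspan3. The genes had been named partly for being high, so this count describes them and tests nothing.

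Relb had a median of 321 CPM (226 to 407) in the gated cells, with cDC2 next at 61.0 CPM (32.6 to 84.6), and the ranges did not overlap. Cd274 had 159.7 CPM (89.3 to 192) in the gated cells, with neutrophils next at 77.1 CPM (52.9 to 111) and Kupffer cells after them at 58.9 CPM (29.5 to 72.5); the ranges of gated cells and neutrophils overlapped. Cd200 had 395 CPM (137 to 448) in the gated cells, with pDC next at 209 CPM (89.5 to 284), overlapping as well. Ccl5 was not highest in the gated cells: NK cells and ILC1 had 18523 CPM (9560.2 to 25235) and T cells 13494 CPM (7251 to 23066), against 1966 CPM (1453 to 4599.6) in the gated cells. Ccl5 in the gated cells was thus above both other dendritic classes and below these lymphocytes. Among the genes of the rule, Ccr7 had 2674 CPM (1116 to 2883) in the gated cells, with B cells next at 765 CPM (689 to 984).

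**Figure D5:**
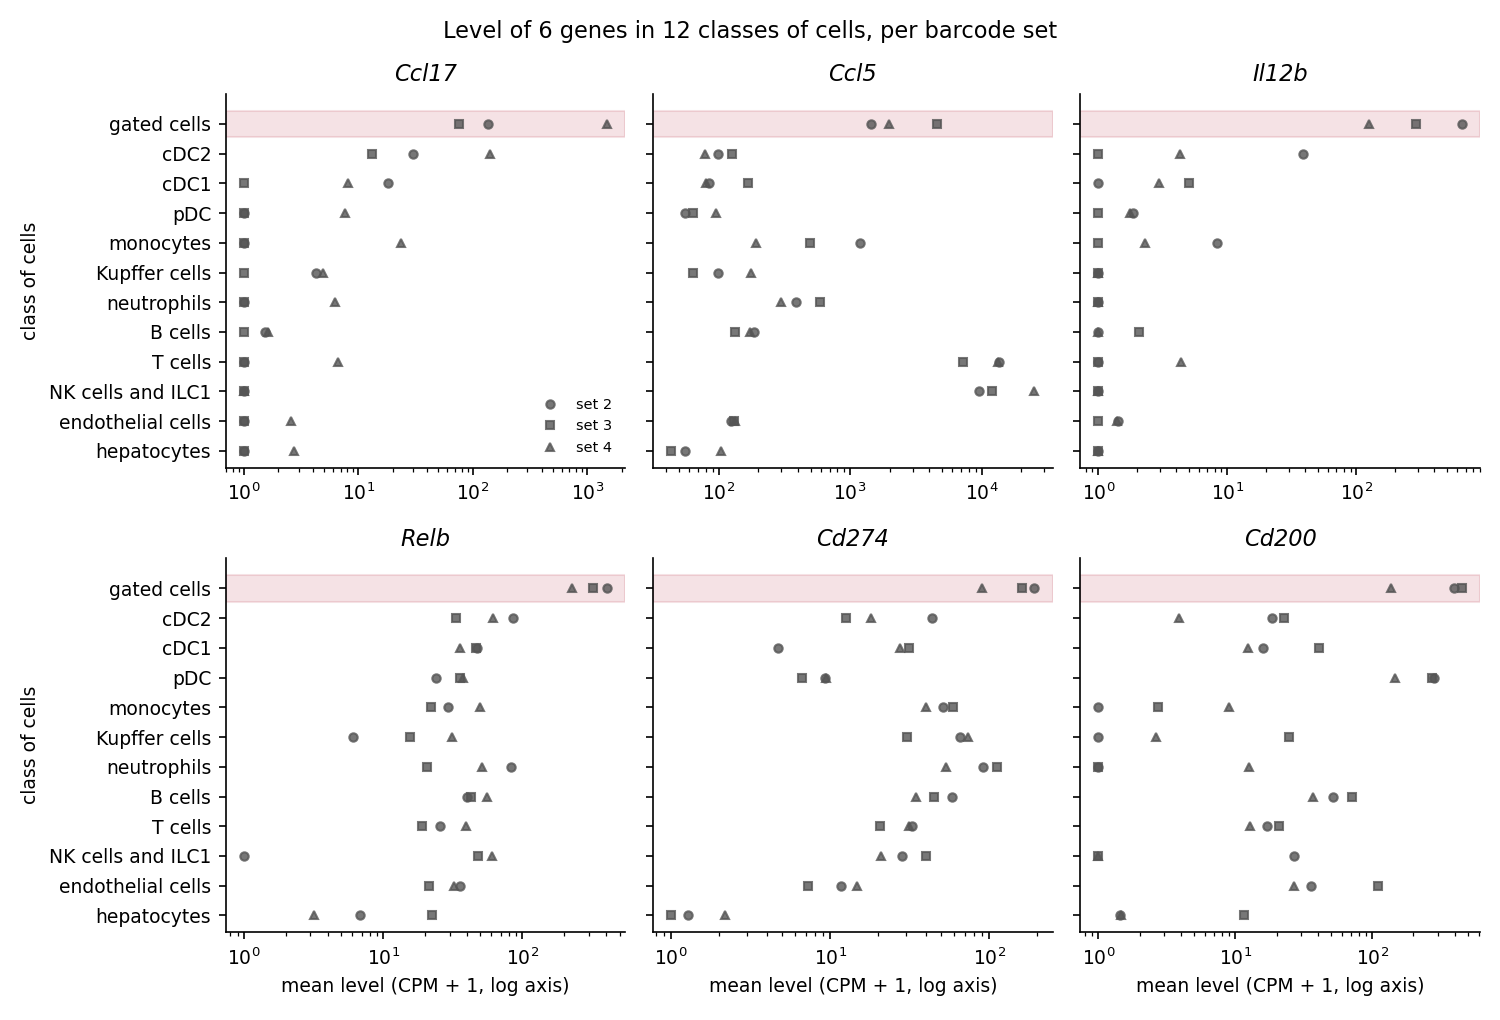
Mean level (CPM plus 1, log axis) of 6 genes in 12 classes of cells (rows), with 1 symbol per barcode set and the gated cells shaded at the top. Ccl17, Il12b and Relb are highest in the gated cells of every set, Cd274 overlaps neutrophils and Cd200 overlaps pDC, and Ccl5 is highest in NK cells, ILC1 and T cells.

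Receptors for several of these ligands were looked up in the T cells (1620 cells) and NK cells and ILC1 (452 cells) of the same table. Their level is given as summed CPM, the UMIs of a gene per 1000000 UMIs of the class, with exact Poisson 95% intervals. Ccr4, the receptor of CCL22 and CCL17, had 0 UMIs in the gated cells and 21 UMIs in T cells, or 4.96 CPM (3.07 to 7.57). Of these, 1 was in the 22 T cells with Foxp3, the factor of regulatory T cells. That gives 13.1 CPM (0.333 to 73.3), against 4.81 CPM (2.94 to 7.42) in the other T cells, which is too few UMIs to compare. Pdcd1, the receptor of PD-L1, had 0 UMIs in the gated cells and 443 UMIs in T cells, or 105 CPM. At the depth of the gated cells, 874890 UMIs, a count of 0 allows up to 4.22 CPM by the same interval, which overlaps the interval of Ccr4 in T cells. Cd28 and Ctla4, which bind CD80 and CD86, had 1 and 5 UMIs in the gated cells. T cells had 285 CPM of Cd28 (269 to 302) and 112 CPM of Ctla4 (102 to 123), and regulatory T cells 500 CPM of Ctla4 (354 to 686). Tnfrsf4, the receptor OX40, had 45.7 CPM in the gated cells (32.7 to 62.3) and 907 CPM in regulatory T cells (706 to 1148). Il12rb2, a chain of the interleukin 12 receptor, had 1 UMI in the gated cells, 11.6 CPM in T cells (8.55 to 15.3) and 76.8 CPM in NK cells and ILC1 (59.1 to 98.0). These are levels of transcripts and show no contact between cells.

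The gene deleted in hepatocytes was barely detected in the gated cells. Zbtb17 had 5 UMIs over all 181, or 5.72 CPM summed over cells (exact Poisson 95% interval 1.86 to 13.3), against 7 UMIs in cDC2 and 8 in cDC1, which is too few to compare. Mtdh, which encodes metadherin, a protein linked to NF-kB signalling in tumour cells, had 141, 136 and 151 CPM in the gated cells, against 160.3, 167 and 162 CPM in cDC2 and 105, 117 and 198 CPM in cDC1, with ratios of -0.16 (-0.26 to -0.09) and 0.19 (-0.35 to 0.36). The gated values overlapped those of cDC1 and lay just below those of cDC2, by less than 2-fold.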

How the data were processed

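The deposited table holds 17813 genes in 24802 cells from 4 samples (2 per genotype). Its values are natural log values, deposited by the authors as the log of 1 plus UMIs per 10000 UMIs of the cell; CASAVA, Cell Ranger, Seurat and mm10 are named in the submitters' processing notes. All values gave whole UMIs (tolerance 0.001), 65920312 in all and 9093921 to 35033778 per barcode set. The fewest genes in a cell were 201. No map from cells to samples was used here, so the planned limma comparison of genotypes was not run.

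The members and gene lists were chosen with earlier results of these data known. Gates, CPM means and ratios were computed with numpy 2.4.6 and pandas 2.3.3, and clusters with scanpy 1.11.5 (2000 variable genes, 30 components, 15 neighbours). Cells meeting more than 1 comparison gate, or the rule, entered neither comparison gate. No doublet caller was run and no cell was removed. Named genes were, per list, the 4 of highest level in the gated cells and those called, and per comparison the 10 called genes of highest and of lowest ratio. The ratio procedure was tested on simulated data. The alternatives chosen after seeing the data were leaving out cells with endothelial markers, the compact cluster alone, and a minimum of 10 cells. Exact binomial and Poisson intervals cover counting error only. Some items are not reported here.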

Additional observations from a re-analysis of the deposited data

How the results depend on the processing

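Counts of genes at least 2-fold apart in every set depended on the settings. Parentheses give their share of the genes tested. With a pseudocount of 50 CPM, 62 genes were higher (2.14%) and 37 lower (1.28%) than in cDC2, and 63 (2.14%) and 33 (1.12%) than in cDC1. A level of at least 200 CPM tests fewer genes, 715 against cDC2 and 711 against cDC1. The counts were 45 (6.29%) and 36 (5.03%) against cDC2, and 57 (8.02%) and 28 (3.94%) against cDC1. These counts are below those of the main setting, but the shares are above its 4.35%, 2.59%, 4.85% and 2.58%. The compact cluster alone had 17, 18 and 18 gated cells in sets 2 to 4, so it was run with a minimum of 10 cells. It gave 231 (7.90%) and 256 (8.76%) against cDC2, and 249 (8.31%) and 272 (9.08%) against cDC1. With at least 3 of the 5 rule genes, 147 were lower than in cDC2 (5.18%) and 159 than in cDC1 (5.48%). With a minimum of 10 cells, which adds set 1, 83 were higher (3.07%) and 32 lower (1.18%) than in cDC2, and 44 lower (1.56%) than in cDC1. From summed UMIs, 48 were lower than in cDC1 (1.72%). Leaving out 1 barcode set at a time gave 186 to 252 higher (6.17 to 8.05%) and 101 to 192 lower (3.22 to 6.35%) than in cDC2. Against cDC1 it gave 193 to 247 higher (6.30 to 7.84%) and 113 to 179 lower (3.69 to 5.92%). Fewer sets have to pass with a set left out. For all but these constructions the cause was not tested.

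The share of gated cells was 0.355% with at least 3 rule genes, 0.977% among cells with at least 500 genes, 0.508% after thinning and 0.556% without cells with endothelial markers; leaving out a set gave 0.661 to 0.780%. Over cDC1, Ehd3 was at -0.20 with at least 3 rule genes, in the largest Leiden cluster and without cells with endothelial markers, and at -0.28 in the compact cluster. Kdr was at -0.44 in the Leiden cluster, -0.29 without those cells and -0.63 in the compact cluster. Sparc was at -0.31 with at least 3 rule genes and -0.68 in the compact cluster, and Fabp4 at -0.018 in the Leiden cluster. Of 3008 values of single genes under other settings, 2665 moved by less than the spread between sets, 333 moved further and 10 changed sign.

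No paired analysis was possible because the columns carry no sample or replicate number. Set 1, with 18 gated cells, gave values only, and genes near the 20 CPM pseudocount rest on single UMIs.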
